A study of Mus musculus with 2669 samples.

Results

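Cells dissected from the medial ganglionic eminence (MGE) and the caudal ganglionic eminence (CGE) of the mouse embryo at E14.5 were compared on 9 microfluidic capture chips numbered 160 or above. The members were all cells labelled dMGE, vMGE or CGE of that age on those chips with at least 1000 detected genes and 50000 counts, which gave 634 of the 2669 cells of the series. All embryos were of the outbred CD1 strain, the labels name no other genotype and no treatment, and the chip was the replicate because no animal or litter is named. P-values therefore measure only the spread between chips, which may be technical. The CGE group held 387 cells on 5 chips (160, 161, 162, 189-2 and 190-2). The MGE group held 247 cells on 4 chips, of which 191, 192 and 193 were dorsal (dMGE) and 194 was the 1 ventral (vMGE) chip. Values are given in these orders of chips throughout. For comparison, 926 MGE cells on 13 chips and 467 CGE cells on 6 chips at E12.5 came from chips numbered 160 or above, and 623 E14.5 MGE cells on 9 chips had chip numbers below 160, a range in which only MGE was analysed here.

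The ganglionic eminences are transient swellings of the ventral forebrain whose dividing progenitors line the ventricle and release GABAergic neurons. The MGE gives rise to the somatostatin and parvalbumin classes of cortical interneurons and to cholinergic and other neurons of the basal forebrain, under the homeodomain factor Nkx2-1 and the LIM factors Lhx6 and Lhx8. The CGE gives rise to other cortical interneuron classes and is marked by the nuclear receptors Nr2f1 and Nr2f2 and the zinc finger factor Sp8. The lateral eminence (LGE) lies lateral to the MGE and produces striatal projection neurons, which carry Meis2, Foxp1 and Foxp2. The CGE is the caudal region where the other eminences fuse.

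The chips differed in how much of a cell's transcriptome they held. Summed counts per chip ran from 58468299 to 92747163 in CGE and from 34631663 to 51118077 in MGE. A cell held a median of 3180.5, 3187, 2843.5, 821 and 833.5 genes at 10 CPM (counts scaled to the chip's or cell's total) or more on the CGE chips, and 386, 433, 2187 and 1596 on the MGE chips. On dMGE chips 191 and 192 a median of 49.2% and 50.4% of a cell's detected genes rested on 1 read, against 10.7% to 35.5% on the other 7 chips. Chips 191 and 192 therefore stood apart, and results are given with and without them. Chips 160, 161 and 162 hold CGE only, so results within chips 189-2 to 194, which hold both regions, are also given.

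**Figure D1:**
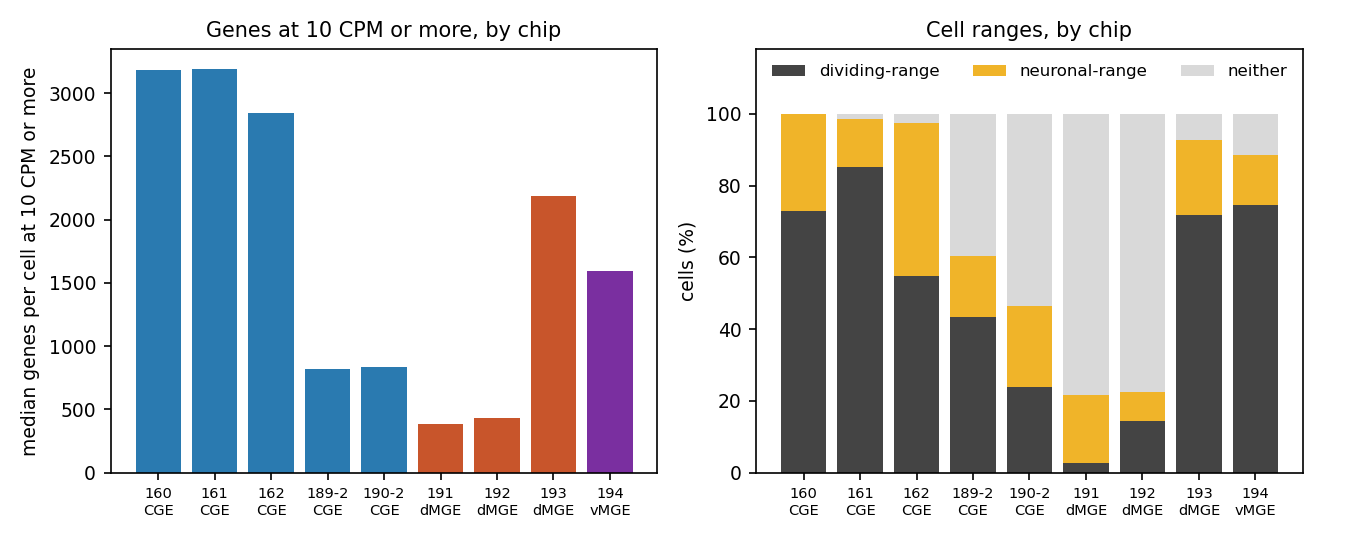
Left, median number of genes per cell at 10 CPM or more for each E14.5 chip; right, percent of each chip's cells in the dividing range, the neuronal range or neither. Chips 191 and 192 lie lowest on the left, at 386 and 433 genes, and 78.4% and 77.6% of their cells fall in neither range on the right.

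Between MGE and CGE, edgeR's quasi-likelihood test on counts summed per chip called 0 of 12087 genes (0%) at an adjusted p under 0.05. Without adjustment 1011 genes had p under 0.05. On the same genes limma on log2(mean CPM + 1) called 0, and DESeq2, which gave an adjusted p for 2839 of them, called 1152 higher and 1 lower in MGE. The median log2 fold change of all genes was -0.21 in edgeR and 0.53 with the size factors of DESeq2. Single genes moved further, Nr2f2 from 2.99 to 6.1, Meis2 from -0.20 to 2.13 and Sp8 from -7.11 to -6.11. The size of a log2 fold change, and the direction of a small one, thus depend on the scaling. A plainer measure is whether the chips of the 2 regions overlapped in CPM. All 4 MGE chips lay above all 5 CGE chips for 45 of the 12087 genes (0.372%) and below them for 284 (2.35%). With chips 193 and 194 as the MGE chips, 835 of 14268 genes lay above (5.85%) and 642 below (4.5%). Since a single cell often gave most of a gene's counts on a chip, the same was counted with the highest cell of every chip left out for each gene, a measure chosen after the values were seen. Then 15 genes lay above (0.124%) and 249 below (2.06%) on 4 chips, and 851 above (5.96%) and 414 below (2.9%) on chips 193 and 194. Counts of list members are to be read against these shares.

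The factors that define the MGE were led by Nkx2-1 and Lhx8. Nkx2-1 (ENSMUSG00000001496), a homeobox gene without which MGE identity is lost, stood at 31.99, 24.2, 17.9, 68.1 and 15.4 CPM on the CGE chips and 132.3, 1095, 101.5 and 137.9 on the MGE chips. Every MGE chip lay above every CGE chip, and dMGE chip 192 was far above the rest. On chip 191 a single cell gave 89.5% of the counts. Without the highest cell of every chip the CGE chips stood at 28.1, 20.7, 10.7, 45.5 and 3.02 CPM and the MGE chips at 13.9, 865, 95.1 and 128.6, so that chip 191 lay within the CGE range and the other 3 above it. The means were 367 ± 486 CPM (SD, n = 4) and 31.5 ± 21.4 (n = 5), the log2 fold change was 4.28 ± 1.03 (SE) and the adjusted p in edgeR was 0.403. Without chips 191 and 192 the log2 fold change was 1.73, and within chips 189-2 to 194 it was 3.53.

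Lhx8 (ENSMUSG00000028201), a LIM factor of the cholinergic and ventral lineages, stood at 0.0136, 0.0155, 2.72, 0.0108 and 0.0251 CPM on the CGE chips and 0.116, 14.98, 99.5 and 319 on the MGE chips. It was near 0 in CGE, highest on the vMGE chip, and as low on dMGE chip 191 as in CGE. A single cell gave 83.2% of the Lhx8 counts on chip 192 and another 99.4% on CGE chip 162. Without the highest cell of every chip, chip 192 stood at 2.52 CPM, chip 191 at 0.0866 and chip 162 at 0.0171. The log2 fold change was 7.79 ± 2.10 (adjusted p = 0.403, edgeR), 8.60 without chips 191 and 192, and 11.87 within chips 189-2 to 194.

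Lhx6 (ENSMUSG00000026890), which acts below Nkx2-1 in migrating interneurons, did not separate the regions over all 9 chips. It stood at 431, 233, 332, 312 and 237 CPM on the CGE chips and 114.5, 1631, 542 and 424 on the MGE chips, with a log2 fold change of 1.78 ± 0.76 (adjusted p = 0.516, edgeR). The lowest and the highest of the 9 values were both from MGE, and without chips 191 and 192 the log2 fold change was 0.55. Sox6, which follows Lhx6 in maturing interneurons, stood at 138.1, 139.1, 77.8, 186.4 and 80.2 CPM in CGE and 389, 100.6, 166.8 and 241 in MGE, also with overlap. On chip 191 a single cell gave 99.25% of the Sox6 counts, and 88.7% of the Lhx6 counts came from 1 cell. Without the highest cell of every chip, chips 193 and 194 lay above every CGE chip for both genes and chip 191 below. Chip 192 then lay above CGE for Lhx6 and below it for Sox6. Npy, a neuropeptide of part of the MGE interneurons, stood at 301, 96.7, 198.2, 247 and 322 CPM in CGE and 1335, 362, 366 and 368 in MGE. Its chips did not overlap, also without the highest cell of every chip, although 3 of the 4 MGE values lay within 50 CPM of the highest CGE value. Its log2 fold change of 2.44 ± 0.81 (adjusted p = 0.408, edgeR) was 0.51 without chips 191 and 192. Of the 14 MGE lineage genes tested, 7 had a positive and 7 a negative log2 fold change with a median of 0.74, and 0 were called. Nkx2-1 and Npy lay above CGE on all 4 chips and Cux2, a factor of migrating interneurons, below, at 32.96, 15.9, 16.3, 33.1 and 10.2 CPM in CGE and 0.173, 0.0783, 4.16 and 6.92 in MGE. Without chips 191 and 192 the list's median was -0.67. Satb1, Maf, Sst, Etv1, Zeb2, Nxph1, Nxph2 and Lmo3, further members above 20 CPM, overlapped on the 9 chips. Sst, the somatostatin peptide, stood at 6.17, 7.75, 1.71, 190.8 and 64.8 CPM in CGE and 0.0578, 0.0783, 37.1 and 0 in MGE, and Maf, a factor of maturing interneurons, at 39.98, 39.5, 96.5, 290.3 and 187.2 and 72.9, 59.7, 42.8 and 31.3.

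Sp8 and Pax6 were nearly confined to the CGE chips among the late E14.5 chips. Sp8 (ENSMUSG00000048562) stood at 12.96, 36.9, 75.6, 19.2 and 35.3 CPM on the CGE chips and 0.0578, 0.0196, 0.838 and 0.02298 on the MGE chips. No MGE chip reached 1 CPM, and 28 of the 30 counts on chip 193 came from 1 cell. The log2 fold change was -7.11 ± 1.97 (adjusted p = 0.403, edgeR), -6.52 without chips 191 and 192 and -7.39 within chips 189-2 to 194. Pax6 (ENSMUSG00000027168), a paired-box factor of pallial and LGE progenitors that is also made in some CGE cells, stood at 49.2, 53.05, 27.4, 44.2 and 44.5 CPM in CGE and 0.144, 0.0391, 0.9495 and 0 in MGE. Again no MGE chip reached 1 CPM. A single cell gave 88.1% of the counts of chip 189-2 and 70.5% of those of chip 190-2. Without the highest cells the CGE chips stood at 32.03, 35.4, 21.8, 5.27 and 13.1 CPM and the MGE chips at 0.0866, 0.0196, 0.196 and 0, still without overlap, as for Sp8. Pax6 had a log2 fold change of -7.00 ± 1.93 (adjusted p = 0.403, edgeR).

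The nuclear receptors behaved differently from chip to chip. Nr2f2 (ENSMUSG00000030551), a widely used CGE marker, stood at 36.2, 50.4, 30.5, 139.7 and 95.03 CPM in CGE and 752, 152.7, 16.6 and 16.9 in MGE. Chips 193 and 194 lay below every CGE chip and chips 191 and 192 above every one. A single cell gave 99.95% of the Nr2f2 counts of chip 191, and another gave 65.9% on chip 192. The log2 fold change was 2.99 ± 1.15 (adjusted p = 0.458, edgeR) on all chips and -2.33 without chips 191 and 192, and its direction thus turned. Nr2f1, its close relative, stood at 165.9, 102.7, 121.3, 540.5 and 138.1 CPM in CGE and 168.1, 256, 174.4 and 60.1 in MGE and overlapped. Prox1, a homeodomain factor of CGE interneurons, stood at 46.99, 29.5, 42.6, 24.9 and 0 CPM in CGE and 0.404, 0.0783, 46.2 and 36.5 in MGE and overlapped too. Of the 10 CGE lineage genes tested, 4 were positive and 6 negative with a median of -0.49, and 0 were called. Sp8 was the 1 member that lay below CGE on all 4 MGE chips, and Nr2f2 joined it without chips 191 and 192.

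Of 19 striatal and LGE genes, 8 lay lower on MGE chips 193 and 194 than on any CGE chip, and 0 were called. Of all 14268 genes tested on these chips, 4.5% did so. Meis2 (ENSMUSG00000027210), a TALE homeodomain factor of striatal and other LGE-derived neurons, stood at 578, 608, 609, 518 and 322 CPM in CGE and 205, 592, 102.7 and 47.8 in MGE. Chips 191, 193 and 194 lay below every CGE chip and chip 192 did not. A single cell gave 99.4% of the counts on chip 191 and another 89.2% on chip 192. Without the highest cell of every chip Meis2 stood at 528, 569, 539, 436 and 276 CPM in CGE and 1.24, 64.3, 85.6 and 32.5 in MGE, with every MGE chip below every CGE chip. The log2 fold change was -0.20 ± 0.83 (adjusted p = 0.972, edgeR) on all chips and -2.91 ± 0.46 (adjusted p = 0.9999) without chips 191 and 192. Within chips 189-2 to 194 it was -0.39.

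Foxp1, a forkhead factor of striatal neurons, stood at 313, 232, 191.2, 68.4 and 103.4 CPM in CGE and 108.0, 47.9, 40.2 and 27.7 in MGE, and its relative Foxp2 at 195.0, 380.2, 141.2, 234 and 354 and 3.003, 177.4, 17.1 and 0.597. Chips 193 and 194 lay below every CGE chip for both genes, as did chip 192 for Foxp1 and chip 191 for Foxp2. Penk, the opioid precursor of one class of striatal neurons, stood at 3.67, 48.3, 4.62, 29.7 and 19.2 CPM in CGE and 0, 0.0196, 1.68 and 0 in MGE, so that all 4 MGE chips lay below CGE. On each CGE chip 1 cell gave between 79.6% and 99.9% of the Penk counts, and without it the CGE chips stood at 0.666, 9.63, 0.941, 0.0323 and 0.414 CPM. Isl1, a LIM factor of the other striatal class and of cholinergic neurons, stood at 175.4, 176.7, 130.9, 169.3 and 177.4 CPM in CGE and 0.866, 144.0, 264 and 38.6 in MGE. The CGE values were tight and the MGE values ran from near 0 to above all of them. Ebf1, a factor of striatonigral neurons, stood at 129.8, 14.47, 11.7, 41.1 and 64.9 CPM in CGE and 1.59, 763, 71.2 and 10.1 in MGE and overlapped, with the highest value on chip 192.

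Of the 13 striatal and LGE genes tested on all 9 chips, 7 were positive and 6 negative with a median of 0.09, and 0 were called. Penk and Pax6 lay below CGE on all 4 MGE chips. Without chips 191 and 192, 19 members were tested with a median of -2.91, against -0.22 over all genes. Of these, 8 lay below CGE on both MGE chips (Meis2, Foxp1, Foxp2, Penk, Six3, Zfp503, Pax6 and Sp9) and 0 lay above. Over all genes 4.5% lay below and 5.85% above, and without the highest cells 2.9% lay below. Six3, a homeobox factor of striatal progenitors, stood at 148.2, 79.98, 54.95, 96.01 and 80.7 CPM in CGE and 37.02, 184.7, 16.03 and 20.3 in MGE, with 1 cell giving over 99% of the counts of chip 192. Zfp503, an LGE zinc finger factor, stood at 4.89, 5.42, 7.696, 51.5 and 102.8 CPM in CGE and 130.3, 148.2, 2.04 and 0 in MGE, where 1 cell gave 99.9% of the counts on chip 191 and another 94.6% on chip 192. Without the highest cell of every chip Foxp2 and Six3 also lay below CGE on all 4 MGE chips, whereas Zfp503 and Foxp1 overlapped. These are sums over all cells of a chip, in which fewer cells of a type and less RNA per cell cannot be told apart.

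**Figure D2:**
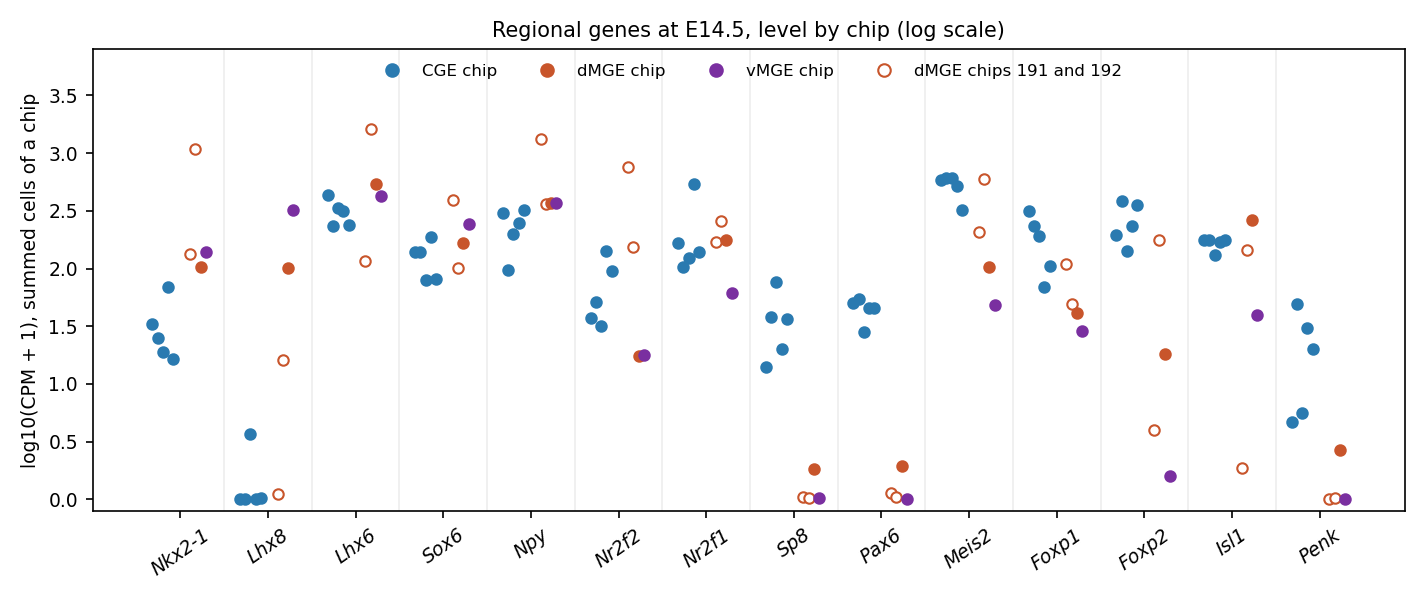
Level of 14 regional genes in the summed cells of each E14.5 chip, as log10(CPM + 1), with CGE chips on the left and MGE chips on the right of each column. Nkx2-1 separates the regions upward and Sp8, Pax6 and Penk downward, while open circles (chips 191 and 192) lie above the filled MGE points for Nr2f2 and Meis2.

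Counting cells instead of reads limits the weight of any one cell. Every cell was thinned to 50000 counts, and the share of cells with at least 1 count was compared over chips with a two-sided exact permutation test for 13 genes and 5 pairs of genes. The smallest p that 4 against 5 chips allow is 0.0159, and 0 of the 18 shares passed after Benjamini-Hochberg adjustment. Whether a share at that smallest p passes depends on how many others also reach it, so passing does not speak for 1 share alone. Here Nr2f2, Sp8 and their pair reached it, at an adjusted p of 0.0952 each in this permutation test. A thinned cell held a median of 3116.5, 3124, 2792, 859.5 and 852 genes on the CGE chips and 585, 577, 2150 and 1614 on the MGE chips, so thinning did not even out detection, and its part in these shares was not tested.

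Cells with Nr2f2 made up 44.3, 40, 30.5, 39.5 and 22.6% of the CGE chips and 2.703, 18.4, 18.3 and 7.59% of the MGE chips. Every MGE chip lay below every CGE chip, chips 191 and 192 included, with means of 11.7% ± 7.87 (SD, n = 4) and 35.4% ± 8.72 (n = 5) and an exact p of 0.0159 (adjusted 0.0952). The share of cells and the summed level of Nr2f2 thus went opposite ways on chips 191 and 192. Cells with Sp8 made up 15.7, 20, 12.2, 10.5 and 8.33% of the CGE chips, and 0, 0, 1.22 and 0% of the MGE chips, where 1 of 247 cells held a count. The means were 0.305% ± 0.6098 and 13.3% ± 4.59, with the same exact p of 0.0159 (adjusted 0.0952). Cells with both Nr2f2 and Sp8 made up 8.57, 9.33, 7.32, 6.58 and 3.57% of the CGE chips. They were seen in 0 of 247 thinned MGE cells of the 4 chips together. With the cells pooled, counting error alone allows a share of up to 1.215% of cells with a count of both at the 95% level. On single MGE chips it allows from 3.66% to 8.11%. Without thinning 1 MGE cell, on chip 191, held both.

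Meis2 had the widest gap between means of the 18 shares. Cells with Meis2 made up 94.3, 86.7, 80.5, 60.5 and 35.7% of the CGE chips and 5.41, 14.3, 39.02 and 15.2% of the MGE chips. Chips 191, 192 and 194 lay below all CGE chips and chip 193 just above the lowest, with means of 18.5% ± 14.4 and 71.5% ± 23.6 (exact p = 0.0318, adjusted 0.143). Cells with Foxp1 made up 58.6, 50.7, 40.2, 14.47 and 17.9% in CGE and 13.5, 12.2, 18.3 and 10.1% in MGE (exact p = 0.0476, adjusted 0.163), and cells with Nr2f1 71.4, 65.3, 57.3, 59.2 and 35.7% and 13.5, 22.4, 64.6 and 27.9% (exact p = 0.0635, adjusted 0.163). Both overlapped.

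Nkx2-1 was counted in 34.3, 29.3, 12.2, 11.8 and 3.57% of the cells of the CGE chips and 18.9, 40.8, 59.8 and 59.5% of those of the MGE chips (exact p = 0.0635, adjusted 0.163). Chips 193 and 194 were nearly alike and above all CGE chips, whereas chip 191 lay within the CGE range. Lhx8 was counted in 0, 0, 1.22, 0 and 1.19% and 0, 14.3, 24.4 and 51.9% (exact p = 0.0952, adjusted 0.171). On the vMGE chip its Wilson 95% interval was 41.05% to 62.6%, and on dMGE chip 193 it was 16.4% to 34.7%; intervals and limits here cover counting error only. Lhx6 was counted in 52.9, 45.3, 40.2, 27.6 and 21.4% of CGE and 18.9, 42.9, 67.1 and 56.96% of MGE cells (exact p = 0.429, adjusted 0.514). Gad1, which makes GABA, was counted in 71.4, 84, 79.3, 31.6 and 36.9% and 32.4, 22.4, 64.6 and 54.4%, and Mki67, a marker of dividing cells, in 42.9, 53.3, 36.6, 17.1 and 15.48% and 24.3, 12.2, 35.4 and 55.7%, both with overlap. Without thinning, 6 of the 18 shares reached the smallest possible exact p and so passed together, at an adjusted p of 0.0476 each. Nkx2-1, Lhx8 and the pair Lhx6 with Lhx8 were higher in MGE, and Nr2f2, Sp8 and their pair were lower. Without chips 191 and 192, where the smallest possible exact p is 0.0952, the thinned difference in mean share (MGE minus CGE, in percentage points) was 41.4 for Nkx2-1, 37.7 for Lhx8, -22.4 for Nr2f2, -12.7 for Sp8 and -44.4 for Meis2.

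The genes counted together with Lhx6 varied between chips. Of the cells with Lhx6 after thinning, Lhx8 was also counted in 0 of 37, 0 of 34, 1 of 33, 0 of 21 and 1 of 18 on the CGE chips, and in 0 of 7, 4 of 21, 15 of 55 and 28 of 45 on the MGE chips. The vMGE chip held the highest share of them, and dMGE chip 191 none. Meis2 was counted with Lhx6 in 33 of 37, 26 of 34, 22 of 33, 16 of 21 and 7 of 18 Lhx6 cells on the CGE chips. On the MGE chips it was counted in 1 of 7, 3 of 21, 21 of 55 and 5 of 45. Nkx2-1 was counted in 18 of 37, 16 of 34, 7 of 33, 2 of 21 and 0 of 18 Lhx6 cells of the CGE chips and in 0 of 7, 8 of 21, 38 of 55 and 23 of 45 of the MGE chips. As shares of all cells, the pair Lhx6 with Lhx8 gave an adjusted p of 0.171, Lhx6 with Meis2 0.171, Lhx6 with Nkx2-1 0.469 and Lhx6 with Nr2f2 0.234 (exact permutation tests).

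**Figure D3:**
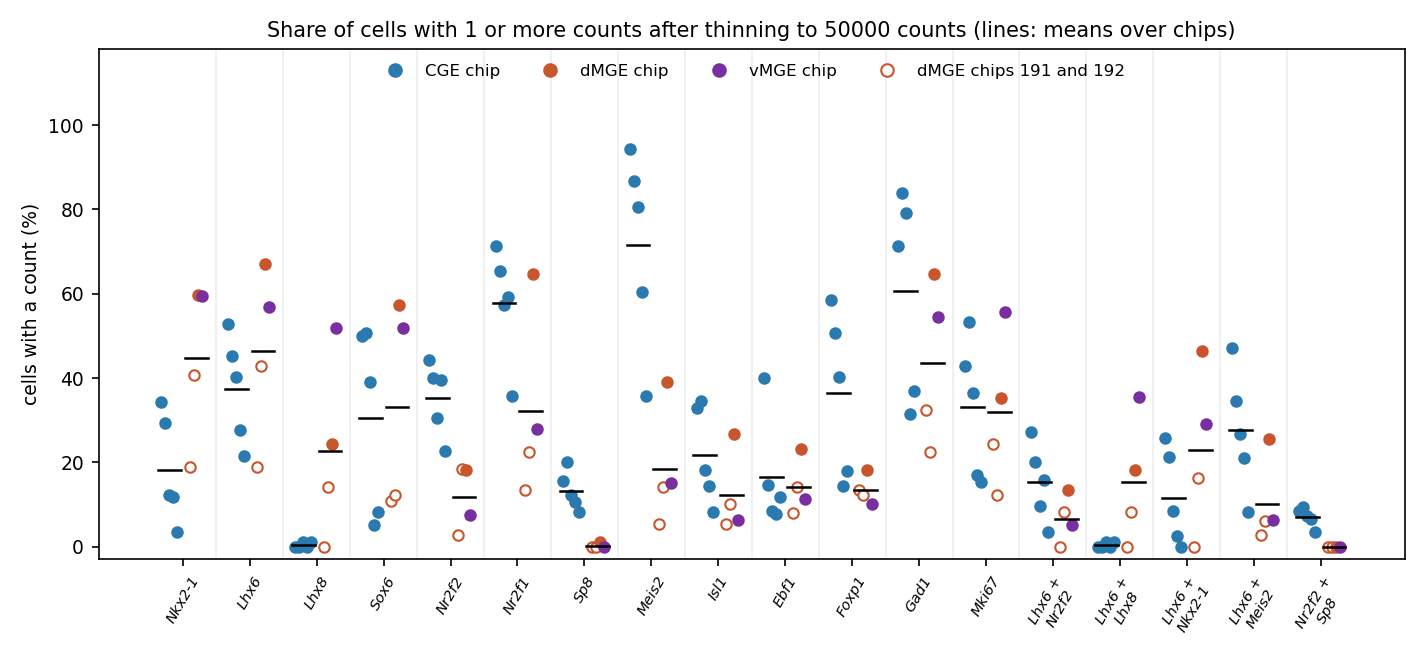
Percent of cells on each E14.5 chip with 1 or more counts of a gene, or of both genes of a pair, after thinning each cell to 50000 counts; lines are means over 5 CGE and 4 MGE chips. Nr2f2, Sp8 and their pair show MGE chips entirely below CGE chips, and the means of Meis2 lie farthest apart.

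Dividing cells and neurons were also compared separately. A cell was put in the dividing range with at least 3 of 10 cycling markers at 10 CPM or more, and otherwise in the neuronal range with at least 3 of 6 neuronal markers. Dividing-range cells made up 72.9, 85.3, 54.9, 43.4 and 23.8% of the CGE chips and 2.70, 14.3, 71.95 and 74.7% of the MGE chips, with means of 56.1% ± 24.2 (SD, n = 5) and 40.9% ± 37.7 (n = 4; exact permutation p = 0.460, adjusted 0.460). Neuronal-range cells averaged 24.6% ± 11.4 in CGE and 15.4% ± 5.64 in MGE (exact permutation p = 0.175, adjusted 0.349). Neither share differed beyond the spread between chips, and 86 CGE and 56 MGE cells lay at 2 or 3 cycling markers, next to the limit. Chips 191 and 192 held fewer than 10 cells of each range, so the comparisons within a range set dMGE chip 193 and vMGE chip 194 against the 5 CGE chips.

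In dividing-range cells edgeR called 0 of 13351 genes (0%), with 242 at an unadjusted p under 0.05, limma called 0, and DESeq2 called 14 higher and 172 lower in MGE. Meis2 had the smallest p of the genes named as lower in MGE. It stood at 547, 604, 496, 676 and 486 CPM in CGE and 131.0 and 62.02 on chips 193 and 194, a log2 fold change of -2.66 ± 0.54 with an unadjusted p of 0.000638 and an adjusted p of 1. Foxp2 stood at 248, 217, 177.1, 201 and 879 CPM in CGE and 8.11 and 0.756 in MGE (-6.51 ± 1.41, adjusted p = 1, edgeR). Leaving out the highest cell, Meis2 stood at 107.7 and 41.9 CPM on these MGE chips, and at 324 on the lowest CGE chip. For Foxp2 a single cell gave 91.7% of the counts on CGE chip 190-2 and another 65.9% on chip 189-2. Without the highest cells Foxp2 stood at 73.1 and 68.3 CPM on these CGE chips, and at 1.03 and 0 on MGE chips 193 and 194. Foxp1, Six3, Zfp503, Sp8 and Nr2f2 also lay below every CGE chip on both MGE chips. How many of all genes separated in this way was not counted for either range. Over all cells, 4.5% of genes lay below CGE on chips 193 and 194 and 5.85% above. Of the 18 striatal and LGE genes tested in this range 17 were negative with a median of -2.65, against -0.18 over all genes, and 0 were called. Of all 13351 genes 7574 were negative. Negative values also prevailed among Hedgehog (8 of 8, median -1.86), pan-neuronal (14 of 16, -0.85) and G2 and M phase genes (17 of 20, -0.41). Positive values prevailed among S phase (10 of 15, 0.27) and retinoic acid genes (6 of 9, 0.74).

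Genes named as higher in dividing-range MGE cells included Crabp2 and Mbip. Crabp2, which carries retinoic acid in the cytoplasm, stood at 2.37, 0.274, 1.49, 0 and 0 CPM in CGE and 98.3 and 113.1 in MGE (7.15 ± 1.95, adjusted p = 1, edgeR). Mbip, a subunit of the ATAC histone acetyltransferase complex and the nearest protein-coding neighbour of Nkx2-1 on 1 side in RefSeq's GRCm38.p6 annotation, stood at 137.5, 137.6, 236, 269 and 152.4 CPM in CGE and 499.5 and 1021 in MGE (1.92 ± 0.53, adjusted p = 1, edgeR). Nkx2-1 itself stood at 37.3, 28.4, 29.9, 117.6 and 6.08 CPM in CGE and 117.7 and 155.3 in MGE, so that CGE chip 189-2 came within 1 CPM of chip 193. Lhx8 stood at 0.0176, 0.0183, 5.64, 0 and 0.0579 and 114.2 and 293 CPM (7.55 ± 2.28, adjusted p = 1, edgeR). With the marker level of the ranges raised to 100 CPM, an alternative chosen after seeing the data, Lhx8 was the 1 gene called (edgeR adjusted p = 0.0408). Also named by the smallest p were Uqcrc1, a subunit of respiratory complex III, at 534, 429.6, 312, 247 and 384 CPM in CGE and 907 and 1028 in MGE, and on the other side Shtn1, a neuronal polarity protein, at 102.9, 167.6, 135.2, 106.1 and 80.6 and 20.7 and 7.41, and the cystine transporter Slc7a11, at 125.5, 105.4, 71.8, 19.04 and 19.97 and 1.14 and 0.393.

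In neuronal-range cells edgeR called 0 of 10690 genes (0%), with 300 at an unadjusted p under 0.05, while limma called Meis2 alone and DESeq2 called 19 higher and 487 lower in MGE. Meis2 stood at 684, 664, 608, 886 and 647 CPM in CGE and 26.3 and 0 in MGE. The 5 CGE chips lay close together, and the vMGE chip had no count. The log2 fold change was -6.11 ± 1.81 (adjusted p = 0.858) in edgeR and -7.02 (adjusted p = 0.0211) in limma. On chip 193 its counts came from 5 of 17 cells. Without dMGE chip 193 edgeR called it (adjusted p = 0.0232), but then vMGE chip 194 was the only MGE chip and was assumed to vary like the CGE chips. Lhx8 was on both MGE chips, in 6 of 17 and 7 of 11 cells, at 73.2 and 331 CPM, and at 0, 0, 0, 0 and 0.0557 CPM in CGE, with an edgeR adjusted p of 0.858. Sp8 stood at 11.6, 41.2, 51.2, 10.02 and 31.9 CPM in CGE and had no count in the 28 neuronal-range cells of MGE, with 2 to 6 cells holding a count on each CGE chip. On chips 160, 161 and 190-2 a single cell gave 95.9%, 87.5% and 98.95% of the Sp8 counts. Sox6 stood at 61.7, 27.9, 79.2, 4.38 and 0.112 CPM in CGE and 143.2 and 438 in MGE without overlap, and Lhx6 at 648, 69.8, 447, 35.5 and 412 and 411 and 476 with overlap.

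Maf, a factor of maturing MGE interneurons, lay lower in MGE, at 33.02, 31.7, 131.0, 75.1 and 345 CPM in CGE and 4.32 and 0.9395 in MGE. A single cell gave 96.8% of the Maf counts on chip 189-2 and another 90.8% on chip 190-2. Without them these chips stood at 2.38 and 31.6 CPM. Isl1 stood at 146.9, 792, 160.8, 459.8 and 5.91 CPM in CGE and 821 and 24.6 in MGE, with wide overlap. The other genes of smallest p that were lower in MGE were Hdac11, a histone deacetylase, Tle4, a corepressor, Syt6, a synaptotagmin, and the membrane protein gene Tmem229b, each lower on both MGE chips than on any CGE chip. The share of all genes that did so in this range was not counted. Single cells gave 99.95% of the Tle4, 96.7% of the Hdac11 and 99.99% of the Syt6 counts of CGE chip 189-2. Without the highest cells Tle4 stood at 0.111 CPM on chip 189-2 and 1.44 on MGE chip 193, and thus overlapped. Syt6 held only 2 counts on CGE chip 190-2. All Tmem229b counts of CGE chips 161 and 189-2 came from 1 cell each, and without these cells both chips were at 0. For Tle4 the values were 145.9, 446, 154.9, 236 and 27.4 CPM in CGE and 3.4 and 0.783 in MGE. Of the 16 striatal and LGE genes tested here 13 were negative with a median of -2.97, against -0.61 over all genes. Negative values also prevailed among forebrain patterning factors (14 of 16, median -2.14), radial glia (11 of 13, -2.38), Hedgehog (6 of 7, -2.43) and pan-neuronal genes (15 of 16, -1.19). They did so too among G2 and M phase (16 of 20, -1.01), GABAergic (7 of 8, -1.3) and migration genes (13 of 18, -1.38). Of all 10690 genes 6959 were negative. Of the 7 retinoic acid genes 7 were positive with a median of 3.79. These counts rest on 17 and 11 MGE cells.

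**Figure D4:**
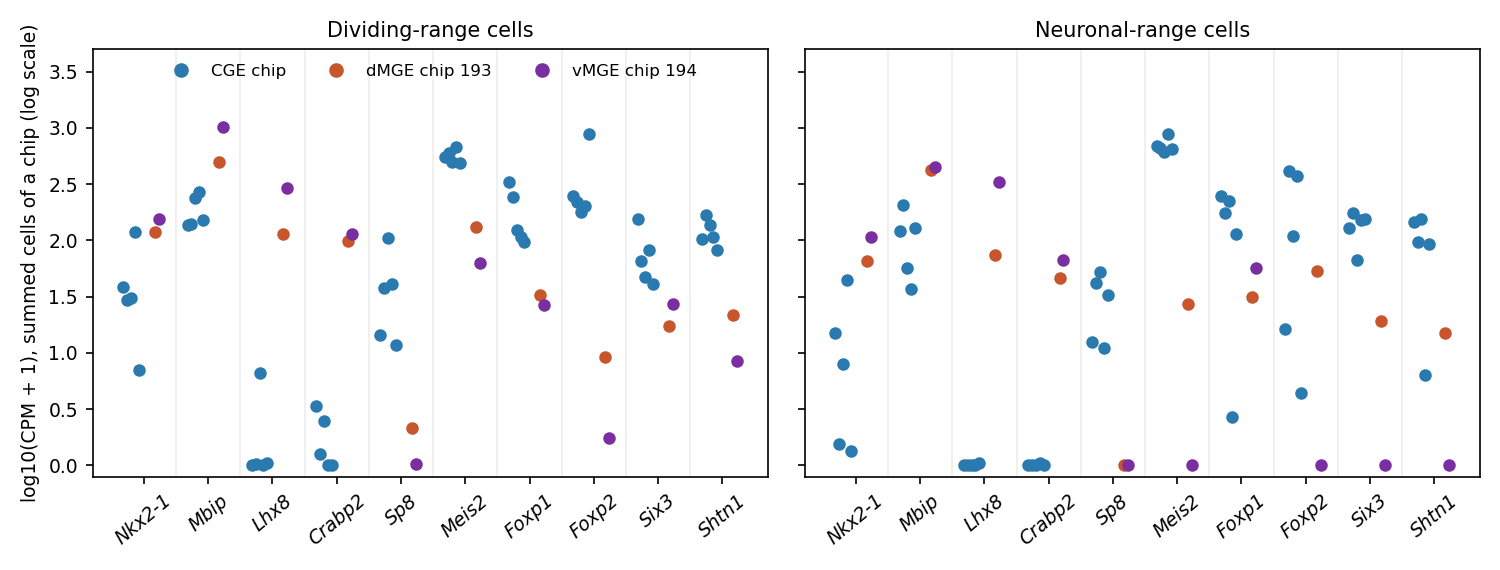
Level of 10 genes in the summed dividing-range cells (left) and neuronal-range cells (right) of each chip with 10 or more such cells, as log10(CPM + 1). In both ranges Meis2 and Sp8 lie lower, and Lhx8, Crabp2 and Mbip higher, on both MGE chips than on the 5 CGE chips.

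Signalling genes fixed by list showed few separated members. In the retinoic acid list 7 of 9 tested genes were positive with a median of 1.43, and 0 were called. Crabp2 stood at 1.83, 0.232, 0.718, 12.9 and 0 CPM in CGE and 0.144, 23.1, 81.9 and 127.0 in MGE. Chips 192, 193 and 194 lay above every CGE chip, whereas chip 191 lay within the CGE range. A single cell gave 99.8% of the counts on chip 192 and another 99.8% on CGE chip 189-2, and without the highest cells only chips 193 and 194 lay above CGE. In the Hedgehog list 6 of 9 tested genes were negative with a median of -2.84, and Cdon, a coreceptor of Shh, was the 1 member without overlap, at 17.4, 10.9, 7.59, 10.6 and 7.23 CPM in CGE and 0.0289, 0.0196, 1.65 and 0 in MGE. On chip 190-2 all of its counts came from 1 cell and on chip 189-2 93.2%, and without the highest cells the regions overlapped, since chip 190-2 was at 0. Among 21 migration and guidance genes 10 were positive and 11 negative with a median of -0.16. Cxcr4, the receptor that guides interneurons along Cxcl12, stood at 55.3, 44.1, 74.2, 12.8 and 17.4 CPM in CGE and 0.491, 0.137, 4.97 and 7.24 in MGE, and the neuregulin receptor Erbb4 at 112.1, 152.8, 198.7, 230.2 and 84.3 and 0.7796, 1.23, 81.7 and 58.04. Both lay below CGE on all 4 MGE chips, and without the highest cell of every chip Cxcr4 did so and Erbb4 overlapped.

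Progenitor and cell cycle lists were mixed. Among 15 radial glia genes 7 were positive and 8 negative with a median of -0.27. Hes5, a Notch target that keeps progenitors undifferentiated, lay above CGE on all 4 MGE chips, at 7.25, 8.29, 4.46, 1.39 and 6.64 CPM in CGE and 98.5, 58.3, 14.7 and 13.6 in MGE, with one cell giving 86.9% of its counts on chip 191 and another 99.9% on chip 192. Without the highest cells chip 192 was near 0, and only chips 191, 193 and 194 lay above CGE. All 7 neurogenic intermediate progenitor genes were positive with a median of 2.4, which was 0.26 without chips 191 and 192. Among them Hes6, which promotes neurogenesis, stood at 403, 241, 195.9, 279 and 317 CPM in CGE and 795, 41.9, 764 and 442 in MGE. A single cell gave 98.7% of its counts on chip 191 and another 91.4% on chip 192. Without the highest cells these chips stood at 10.2 and 3.6 CPM, and only chips 193 and 194 lay above CGE. Of 15 S phase genes 11 were positive (median 0.72) and of 20 G2 and M phase genes 12 (median 0.25). Slbp, which binds histone mRNA, stood at 227, 159.8, 144.4, 148.2 and 269.5 CPM in CGE and 258, 410.5, 496 and 547 in MGE, and Rrm2, of nucleotide synthesis, at 265, 297, 202, 291 and 165.0 and 51.3, 319.5, 489.8 and 475. Both lay above CGE on chips 193 and 194, also without the highest cells. For Slbp a single cell gave 83.35% of the counts on chip 191 and another 92.15% on chip 192. For Rrm2 a single cell gave 86.8% on chip 191.

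Of 16 pan-neuronal genes 9 were positive and 7 negative with a median of 0.02. Mapt, the microtubule protein tau, stood at 335, 179.8, 196.9, 158.2 and 124.2 CPM in CGE and 21.8, 0.469, 65.8 and 54.6 in MGE, and Rbfox3, the nuclear antigen of mature neurons, at 17.4, 2.105, 13.2, 10.2 and 9.26 and 0.0866, 0.0391, 0 and 0.0689, both below CGE on all 4 MGE chips. Without the highest cell of every chip Rbfox3 still lay below and Mapt overlapped. Without chips 191 and 192 the list's median was -0.87, and 7 of the 16 lay below CGE, with 0 above. Over all genes 4.5% lay below and 5.85% above on these chips. Leaving out the highest cells, 2.9% of all genes lay below, and Mapt overlapped on chips 193 and 194 too. Of 8 GABAergic genes 3 were positive and 5 negative with a median of -0.60, and 0 were called. The shares of dividing and neuronal cells given above move between the same chips, and their part in these differences was not tested.

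**Figure D5:**
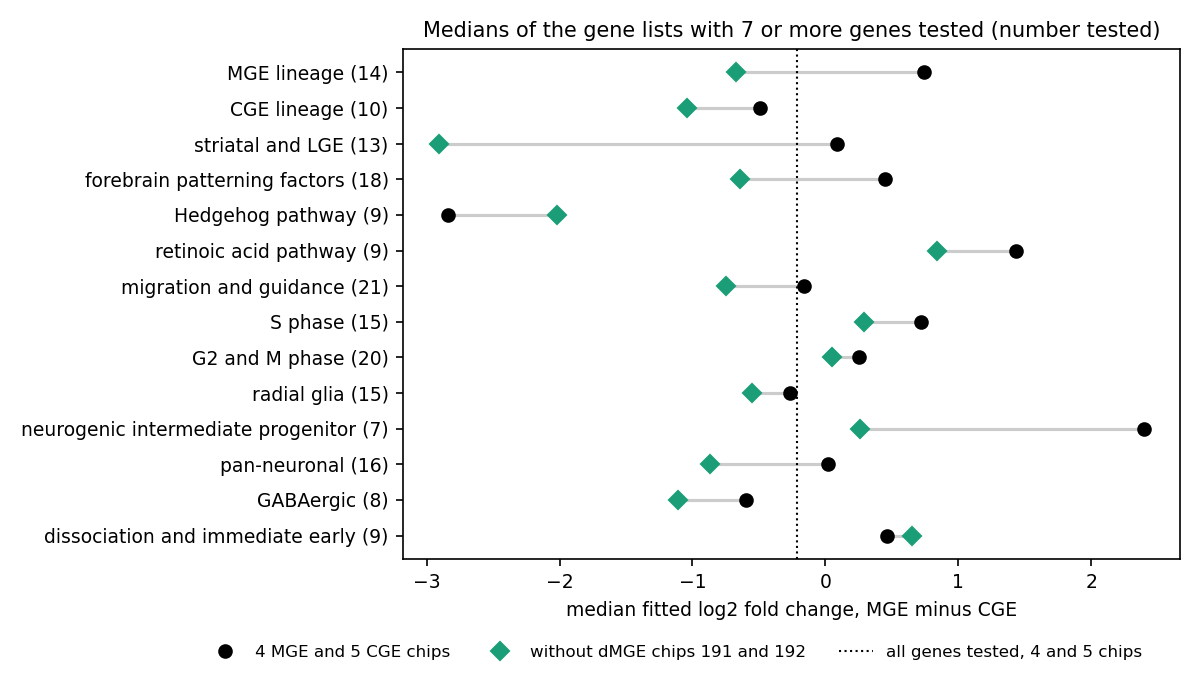
Median edgeR log2 fold change (MGE minus CGE) of each gene list with 7 or more tested genes, with all chips (black) and without chips 191 and 192 (green); the dotted line is the median of all genes, -0.21. The MGE lineage, striatal and neurogenic lists shift most, from 0.74 to -0.67, 0.09 to -2.91 and 2.4 to 0.26.

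The genes with the smallest p values over all cells were partly carried by single cells. Csrnp2, a nuclear protein with transcriptional activity, stood at 78.4, 77.4, 56.1, 45.5 and 88.4 CPM in CGE and 3389, 749, 53.98 and 20.9 in MGE, a log2 fold change of 5.33 ± 1.18 (adjusted p = 0.403, edgeR) that was -1.01 without chips 191 and 192. Chip 193 lay within the CGE range and chip 194 below it. Uchl5, a deubiquitinase of the proteasome, stood at 51.96, 116.2, 122.4, 114.7 and 28.7 CPM in CGE and 1538, 505, 147.6 and 227 in MGE (4.04 ± 0.95, adjusted p = 0.403, edgeR). All 4 MGE chips lay above CGE, but 1 cell gave 74.3% of its counts on chip 191 and 85.1% on chip 192, and without these chips the log2 fold change was 1.0. Pspc1, a paraspeckle protein, stood at 77.5, 55.5, 34.8, 21.3 and 7.55 CPM in CGE and 835, 169.8, 77.7 and 91.4 in MGE (4.31 ± 1.06, adjusted p = 0.403, edgeR), and 1.13 without these chips. On chip 191 a single cell gave 99.98% of its counts, and without the highest cell of every chip neither Uchl5 nor Pspc1 separated the regions on all 4 MGE chips.

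Among the lower genes of smallest p, next to Pax6 and Sp8, Snx25, a sorting nexin, stood at 3.15, 9.77, 2.02, 136.7 and 8.14 CPM in CGE and 0.0289, 0, 0 and 0.2298 in MGE (-8.87 ± 2.41, adjusted p = 0.403, edgeR). On chip 189-2 a single cell gave 95.3% of its counts, and on chip 190-2 all of them. Fv1, a retrovirus restriction gene, stood at 2.81, 11.9, 27.4, 117.6 and 0 CPM in CGE and had no count on any MGE chip, and 1 cell gave 80.5% of the counts of chip 189-2.

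Markers of other cells were uneven between the chips. The 8 microglial markers summed to 3.34, 0, 4.79, 0.0324 and 2.15 CPM on the CGE chips and 90.6, 105, 0.335 and 304.8 on the MGE chips, and in neuronal-range cells of the vMGE chip to 1316 CPM. All 8 had a count on chip 194, 3 on chip 191, 3 on chip 192 and 1 on chip 193, and Cx3cr1 was at 0 in the neuronal range of every chip. In that same chip and range stood Ctsb, a lysosomal protease, at 3753 CPM, against 575 on chip 193 and 263, 428, 178.9, 82.2 and 158.7 in CGE, and Rgs10, a regulator of G protein signalling, at 58.7 CPM; both had been named by their p. There 1 cell gave 92.02% of the Ctsb counts and 76.3% of those of Rgs10. Arhgdib, a gene abundant in leukocytes, stood at 0, 0, 0, 0 and 0.0126 CPM in CGE and 0.0289, 367, 14.2 and 23.2 in MGE, and was called in edgeR without chip 191 (adjusted p = 0.0422) and with dMGE and vMGE as separate groups (adjusted p = 0.0270). In dividing-range cells it stood at 19.3 and 30.5 CPM on chips 193 and 194, and in their neuronal-range cells it was at 0. A single cell gave 99.97% of its counts on chip 192, another 94.3% on chip 193 and another all of them on chip 194, so these calls rest on about 1 cell a chip. The part of microglial RNA in these values was not tested. The 9 erythroid markers summed to between 3.03 and 2228 CPM in CGE and between 15.2 and 3470 in MGE. The 8 endothelial markers summed to at most 5.70 CPM on any chip, and the 10 pallial markers to at most 16.4 except 74.7 on CGE chip 160.

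The E12.5 chips are other embryos and show which of these patterns were present earlier. There edgeR called 4 of 15627 genes (0.0256%) in a fit of all late chips. This count is not comparable with the 0 of the 9 chips alone, since at E14.5 the same fit called 540 (3.46%), among them Nkx2-1, Lhx8, Npy, Nr2f2, Csrnp2, Uchl5 and Pspc1 as higher in MGE. A fit of the E12.5 chips alone called Nkx2-1 and no other gene. Nkx2-1 was higher in MGE, at 334 ± 203 CPM (SD, n = 13) against 26.4 ± 11.9 (n = 6), with a log2 fold change of 4.16 (adjusted p = 0.0316). The heparan sulfotransferase gene Hs3st1, at 16.9 ± 22.8 CPM in CGE and 0.000902 ± 0.00325 in MGE, and the unnamed transcript B130024G19Rik were among the 3 genes that were lower in MGE. Limma called 15 genes at E12.5, among them Lhx8, Lhx6 and Npy higher and Pax6 and Sp8 lower in MGE. Pax6 averaged 1.696 ± 3.43 CPM in MGE and 55.7 ± 25.8 in CGE, and Sp8 0.992 ± 2.405 and 61.2 ± 114.2. Lhx6 averaged 408 ± 192.8 CPM in MGE and 82.1 ± 84.7 in CGE at E12.5, and Nr2f2 66.4 ± 44.3 and 288 ± 142.6.

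Whether the regional difference itself changed with age was tested as an interaction over all 28 late chips, and edgeR called 1 of 15627 genes (0.0064%). This was Uchl5, with a change of 5.55 in its log2 fold change (adjusted p = 0.0280). Its E12.5 chips ran from 75.2 to 268 CPM in MGE (median 133.8) and from 155.0 to 377 in CGE, with overlap. Limma called 0 genes for the change with age, and edgeR called 0 without chips 191 and 192. For the 5 further genes of smallest p (Lrrc14, Sec11c, Nap1l4 and 2 unnamed transcripts) the adjusted p was 0.106 each. The change was -0.13 for Lhx6 (edgeR adjusted p = 0.975) and 2.14 for Meis2 (adjusted p = 0.301). In this fit the E14.5 log2 fold change of Meis2 was 0.54. In the fit of the E14.5 chips without chips 191 and 192 it was -2.91. The size and direction of the change in Meis2 may thus depend on these chips.

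The 9 older E14.5 MGE chips gave values of the same tissue and age from lower chip numbers, with no CGE beside them. Nkx2-1 ran from 105.4 to 237 CPM (median 132.1) and Pax6 from 1.03 to 5.98. Nkx2-1 was thus above every late CGE chip and Pax6 below every one on these chips as well. Sp8 was not near 0 there, running from 2.78 to 407 CPM with a median of 66.7, against 0.0578, 0.0196, 0.838 and 0.02298 on the late MGE chips. Meis2 ran from 80.1 to 411 CPM (median 173.3) and Lhx8 from 7.71 to 64.2 (median 34.4). These values were not tested against CGE.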

How the data were processed

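Single cells were captured on Fluidigm C1 chips, and their polyadenylated RNA was amplified with Smart-seq v4 and tagged with Nextera, per the labels' protocols. The deposited table holds the authors' raw read counts of 37310 genes, without molecular identifiers. Per the submitters' processing notes, STAR 2.4.0, HTSeq 0.6.1, CASAVA, FastQC and SAMtools were used with mm9. Gene names were taken from GENCODE vM21 for 32620 genes, and otherwise from the table. A separate table of normalized values was not used.

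Counts were summed over the cells of each chip and tested with edgeR 4.0.16 (TMM, filterByExpr, robust quasi-likelihood, Benjamini-Hochberg over all genes tested, called under 0.05). Checks used DESeq2 1.42.0, limma 3.58.1 with a pseudocount of 1 CPM, and the alternatives described at the end. The fits were tested on simulated data, in which many of the changed genes were not recovered, so a gene that was not called may still differ. Shares of cells were compared with SciPy's exact permutation test. CPM are counts scaled to a total of 1000000 per chip, or per cell for the ranges. Reads without strand information or shared by paralogs cannot be reassigned.

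Named genes were, in each E14.5 comparison, called genes of largest change (8 each way), or the 4 genes of smallest p each way, above 20 CPM and without predicted genes, called list members, and members of the lineage lists above 20 CPM. For the change with age the 6 genes of smallest adjusted p were named. Others were named after their values were seen, because their chips did not overlap or they bear on a named result. Members and lists were chosen with earlier results of these data known. Values of some single genes are not reported here. No column lacked a sample, and no 2 cells held identical counts.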

Additional observations from a re-analysis of the deposited data

Results flagged for a closer look

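Single chips lay far from the others of their group by Dixon's criterion at the 95% level, which chance passes in about 1 of 20 groups of normally distributed values. These sums, often near 0 or carried by 1 cell, need not follow that rate. On dMGE chip 192 these were Nkx2-1 at 1095 CPM, Ebf1 at 763, Foxp2 at 177.4, Six3 at 184.7 and Arhgdib at 367. On dMGE chip 191 they were Npy at 1335 CPM and Pspc1 at 835. On dMGE chip 193 Sp8 at 0.838 CPM, Pax6 at 0.9495, Penk at 1.68, Cdon at 1.65 and Sst at 37.1 stood above MGE chips that were at or near 0, as did Snx25 at 0.2298 on vMGE chip 194. Among CGE chips, 189-2 stood apart for Nr2f1 at 540.5 CPM, Crabp2 at 12.9, Snx25 at 136.7 and Fv1 at 117.6. Chip 162 stood apart for Lhx8 at 2.72 CPM and, downward, Isl1 at 130.9, and chip 190-2 for Arhgdib at 0.0126, a level of 1 count. The difference between regions changed with age for Uchl5, by 5.55 on the log2 scale in the interaction test of edgeR, and this gene was not called without chips 191 and 192.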

How the results depend on the processing

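In all cells, where edgeR called 0 genes, DESeq2 called 1153, no filter on low counts 174, a fit of all late chips 540, and dMGE and vMGE as separate groups 1. Chips 160, 161, 162, 193 and 194 alone gave 1 and chips 189-2 to 194 alone 2, both chosen after seeing the data, and leaving out 1 chip gave 0 to 1. In neuronal-range cells DESeq2 called 506, limma 1, separate groups 1 and leaving out 1 chip 0 to 1. In dividing-range cells DESeq2 called 186, chips 160, 161, 162, 193 and 194 alone 1, and the 100 CPM range limit 1, the last 2 chosen after seeing the data. At E12.5 the 4 calls became 15 in limma and 1 in a fit of E12.5 chips alone, and for the change with age the 1 call became 0 in limma and 0 without chips 191 and 192.

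Among log2 fold changes over all cells, Nr2f2 turned to -2.33 without chips 191 and 192 and to -1.10 on chips 160, 161, 162, 193 and 194 alone, and Csrnp2 to -1.01 and -0.80. Meis2, at -0.20, turned to 2.13 in DESeq2 and 2.13 with its size factors, 0.04 with no filter, 0.24 without cells that held Xist and Y-linked counts, 0.54 in the fit of all late chips, and -1.11 to 0.16 when 1 chip was left out. Differences in share of cells were larger in size without thinning and then passed for Nkx2-1 (34.7 points, MGE minus CGE), Lhx8 (30.8), Nr2f2 (-37.0), Sp8 (-17.5), Lhx6 with Lhx8 (25.9) and Nr2f2 with Sp8 (-14.1). They were smaller in size without thinning for Meis2 (-40.0 points, from -53.1), Foxp1, Gad1, Isl1 and Lhx6 with Meis2. Ebf1 turned to 18.1 without thinning and 0.681 without chips 191 and 192, Mki67 to 9.59 and 12.46, and the dividing-range share to 17.3 without these chips. The cause was not tested. No paired analysis was possible because the chips of the 2 regions share no number. Of the other values, 103 main and 350 single-gene values kept direction and side of the threshold, and 22 single-gene values became called. Detection per cell on chips 191 and 192, a single vMGE chip and 2 MGE chips per range limit all tests.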
